A study of Homo sapiens with 4 samples.

Results

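The proteases that cut the extracellular matrix and the proteins that hold them back were examined in an established line of human glioblastoma cells, U87. The set holds 9 genes: the matrix metalloproteinase genes MMP1, MMP2, MMP9 and MMP14, the tissue inhibitors TIMP1, TIMP2 and TIMP3, the urokinase gene PLAU and its receptor gene PLAUR. Members were taken by gene symbol, as every probe that the platform annotation names for one of them, which gave 12 of the 47318 probes on the array and 9 of 20045 named genes. All cells were grown in serum-containing medium and transfected with RNAiMax, a lipid reagent, at a final oligo concentration of 25 nM. The 2 groups were cells given a synthetic piR-598 mimic, which copies a short RNA of the PIWI-interacting class, and cells given the NC oligo (miScript Inhibitor Negative Control), sold as a control for inhibitors of microRNAs. RNA was taken after 24 h and read on 4 Illumina bead arrays, 2 for each group, and the submitters call them biological duplicates. Every sample came from the same single cell line, and no untransfected cells were among the 4 samples. The labels name no separate passages or days for the duplicates, and the spread behind each p-value may therefore be technical.

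Matrix metalloproteinases are zinc enzymes that are made as inactive precursors and degrade collagens and other matrix proteins once activated. TIMP proteins bind the active site of these enzymes and block it, and TIMP2 also has a part in activation, since a complex of MMP14 and TIMP2 at the cell surface receives pro-MMP2 for cleavage. Urokinase, bound to its receptor, turns plasminogen into plasmin, which cleaves matrix proteins and can activate some metalloproteinases. In glioblastoma these systems are known for their part in the invasion of brain tissue.

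No gene of the set passed the test 24 h after transfection of the mimic. Of the 12 probes 11 were tested, and limma called 0 of them at a Benjamini-Hochberg adjusted p under 0.05. The background was 0% of the 20188 tested probes, so nothing can be read from the members' count. Without adjustment, 0 member probes had a p under 0.05, against 5.46% of all tested probes. The smallest adjusted p among the members was 0.913, that of MMP14. Log2 fold changes, mimic minus NC oligo, ran from -0.15 for the brighter probe of TIMP2 to 0.27 for MMP14. Their median was 0.06, beside 0.00067 over all tested probes, and their median size regardless of sign was 0.11, beside 0.12. The 95% interval of the fold change lay within 1.5-fold in either direction for 10 of the 11 tested probes, with MMP14 the exception, and within 2-fold for all 11. RNA came from whole cultures, so fewer cells expressing a gene and less RNA per cell cannot be told apart.

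**Figure D1:**
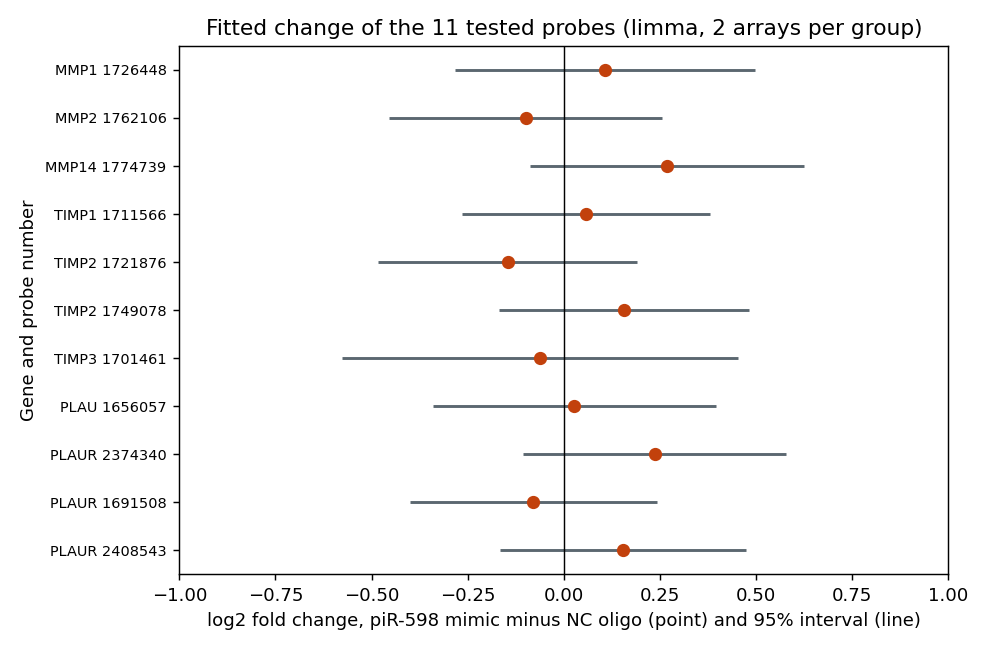
Log2 fold change (horizontal axis, piR-598 mimic minus NC oligo) of each of the 11 tested probes, one row per probe, with its 95% interval from limma over 2 arrays per group. All 11 intervals include 0, and the points run from -0.15 to 0.27.

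The arrays had mean deposited signals between 273.0 and 305.8 and between 19627 and 20324 probes with a detection p under 0.05, and their number limits the precision of every value. Of 9 marker genes of the U87 line, 6 were detected on all 4 arrays (VIM, CD44, NES, TNC, OLIG2 and EGFR), while GFAP, S100B and SOX2 were detected on 0. Their summed log2 level was 14.71 on both NC oligo arrays and 14.63 and 14.68 on the mimic arrays. Macrophages and microglia are known sources of MMP9 and of the urokinase receptor in tissue, while the samples here were of a single cell line. Of their 7 markers 4 were detected on all 4 arrays (CD14, CD68, AIF1 and CSF1R), C1QA on 2 and PTPRC and ITGAM on 0, and the summed log2 level was 11.64 to 11.66 on the NC oligo arrays and 11.72 to 11.78 on the mimic arrays. Of 5 neutrophil markers S100A9 was detected on 4 arrays, S100A8 on 1 and MPO, ELANE and CSF3R on 0, with summed levels of 6.73 to 6.87 against 6.80 to 6.81. Of 5 endothelial markers TEK was detected on 4 arrays, KDR on 2, PECAM1 on 1 and VWF and CDH5 on 0, with summed levels of 6.88 to 6.96 against 6.84 to 7.03. Of 5 epithelial markers EPCAM was detected on 3 arrays and the others on 0, with summed levels of 6.69 to 6.70 against 6.70 to 6.72. Each sum was taken on the linear scale over every marker with a probe, undetected ones included, so the brightest marker weighs most. Among the macrophage and microglia markers, CD68 alone had a mean log2 level of 11.39 with the NC oligo and 11.48 with the mimic. The neutrophil, endothelial and epithelial sums hold mostly probes that were not detected on every array. The part of these markers in the values below was not tested.

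Of the 4 metalloproteinase genes, MMP1, MMP2 and MMP14 were detected on all 4 arrays and MMP9 on 0. MMP9 encodes a gelatinase that degrades denatured and basement membrane collagens. Its single probe gave deposited signals of 94.7 and 96.9 on NC oligo arrays 1 and 2 and of 87.5 and 89.2 on mimic arrays 1 and 2. The detection p, which compares a signal with the negative control beads of its array, was 0.287 at the lowest and 0.653 at the highest. MMP9 was thus not well above background on any of the 4 arrays, and no fold change is given for it.

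MMP1 encodes interstitial collagenase, which cuts fibrillar collagen. Its deposited signals were 149 and 137 on the NC oligo arrays and 128 and 150 on the mimic arrays. The lowest and the highest value both came from mimic arrays, so the groups overlapped. After background correction and quantile normalization the log2 level of MMP1 was 5.95 ± 0.18 with the NC oligo and 6.05 ± 0.24 with the mimic (SD, n = 2). The fitted log2 fold change of MMP1 was 0.11 ± 0.17 (SE), with a 95% interval from -0.28 to 0.50 (limma adjusted p = 0.979). The sign rested on single arrays: the value was -0.02 without NC oligo replicate 2 and -0.06 without mimic replicate 2.

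MMP2 encodes the other gelatinase, the enzyme that MMP14 activates. Its deposited signals were 421 and 363 on the NC oligo arrays and 334 and 330 on the mimic arrays. In these unscaled signals both mimic arrays lay below both NC oligo arrays, but the mimic arrays also had the lower mean signals over all probes. The normalized log2 values of MMP2 were 8.32 and 8.08 with the NC oligo and 8.19 and 8.01 with the mimic, so that the groups overlapped. Its log2 fold change was -0.10 ± 0.16 (SE), with a 95% interval from -0.45 to 0.26 (limma adjusted p = 0.978), and it turned to 0.02 without NC oligo replicate 1.

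MMP14 encodes a metalloproteinase anchored in the cell membrane, and it had the largest log2 fold change of the 11 tested member probes. Its deposited signals were 117 and 109 on the NC oligo arrays and 110 and 116 on the mimic arrays. They overlapped, and they lay close to the detection limit, with a detection p of up to 0.00519. The normalized log2 values were 5.20 and 4.90 with the NC oligo and 5.30 and 5.34 with the mimic, and here both mimic arrays were higher. The 2 NC oligo arrays differed by 0.30, which is more than the group difference of 0.27 ± 0.16 (SE, limma adjusted p = 0.913). The interval of that log2 fold change ran from -0.09 to 0.63. Without NC oligo replicate 1 it was 0.42, and without NC oligo replicate 2 it was 0.12. Without background correction it was 0.09.

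**Figure D2:**
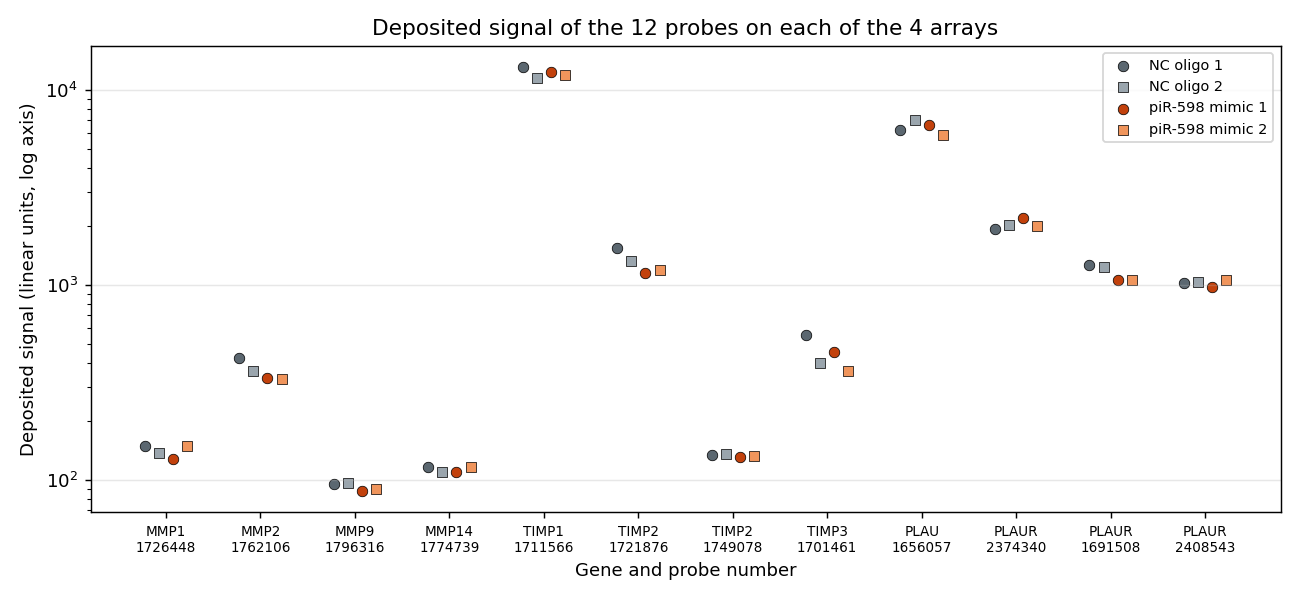
Deposited signal (vertical log axis, linear units before any normalization) of the 12 probes on each of the 4 arrays, with circles for replicate 1 and squares for replicate 2 of each group. Probes differ in how brightly they report, so points are compared within a probe only, and in MMP9 all 4 points lie between 87.5 and 96.9.

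The inhibitor genes were all detected on all 4 arrays, and 0 of their 4 probes passed the test. TIMP1 encodes a secreted inhibitor of most soluble metalloproteinases. Its deposited signals were 13142 and 11611 on the NC oligo arrays and 12415 and 12044 on the mimic arrays, where the brightest probe of any kind on these arrays reached between 14508 and 15211. The mimic values lay between the 2 NC oligo values. On the normalized scale the log2 level was 13.55 ± 0.07 with the NC oligo and 13.61 ± 0.03 with the mimic (SD, n = 2), and the log2 fold change was 0.06 ± 0.14 (SE, limma adjusted p = 0.991). Its 95% interval, as a fold, ran from 0.832 to 1.30. Leaving out NC oligo replicate 1 gave a log2 fold change of 0.10, and leaving out NC oligo replicate 2 gave 0.01.

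TIMP2 encodes the inhibitor that also takes part in pro-MMP2 activation, and its 2 probes pointed in opposite directions. The brighter probe, ILMN_1721876, gave deposited signals of 1543 and 1327 on the NC oligo arrays and 1159 and 1192 on the mimic arrays. Normalized log2 values were 10.43 and 10.23 against 10.21 and 10.17, both mimic arrays lower, with NC oligo array 2 only slightly above mimic array 1. The log2 fold change of this TIMP2 probe was -0.15 ± 0.15 (SE, limma adjusted p = 0.962), and it was -0.05 without NC oligo replicate 1. The dimmer probe, ILMN_1749078, gave 134 and 135 against 131 and 132 as deposited signals, so that its unscaled values were lower on the mimic arrays. Normalized log2 values of this probe were 5.73 and 5.77 against 5.98 and 5.84, higher on both mimic arrays, with a log2 fold change of 0.16 ± 0.14 (SE, limma adjusted p = 0.957), which was 0.09 without mimic replicate 1 and 0.22 without mimic replicate 2. The annotation ties both TIMP2 probes to the same transcript. The difference between the 2 TIMP2 probes shifted by 0.30 on the log2 scale between the groups, a comparison picked after the values were seen and given without a test.

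TIMP3 encodes the inhibitor that binds to the matrix itself and also blocks several ADAM proteases. Its deposited signals were 553 and 400 on the NC oligo arrays and 452 and 364 on the mimic arrays. Replicate 1 was the higher array in both groups, and the groups overlapped. The normalized log2 values differed by 0.53 between the NC oligo arrays and by 0.53 between the mimic arrays, the widest gaps among the tested member probes. The log2 fold change of TIMP3 was -0.06 ± 0.23 (SE), with a 95% interval from -0.58 to 0.45 (limma adjusted p = 0.992). Leaving out an array moved it widely, from -0.33 without NC oligo replicate 2 or without mimic replicate 1 to 0.20 without NC oligo replicate 1 or without mimic replicate 2. Replicate 1 exceeded replicate 2 in both groups for 5 of the 11 tested member probes. PLAUR ILMN_1691508, among them, did so by only 0.0026 between the NC oligo arrays. The share over all tested probes was not computed, so nothing can be read from this count.

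**Figure D3:**
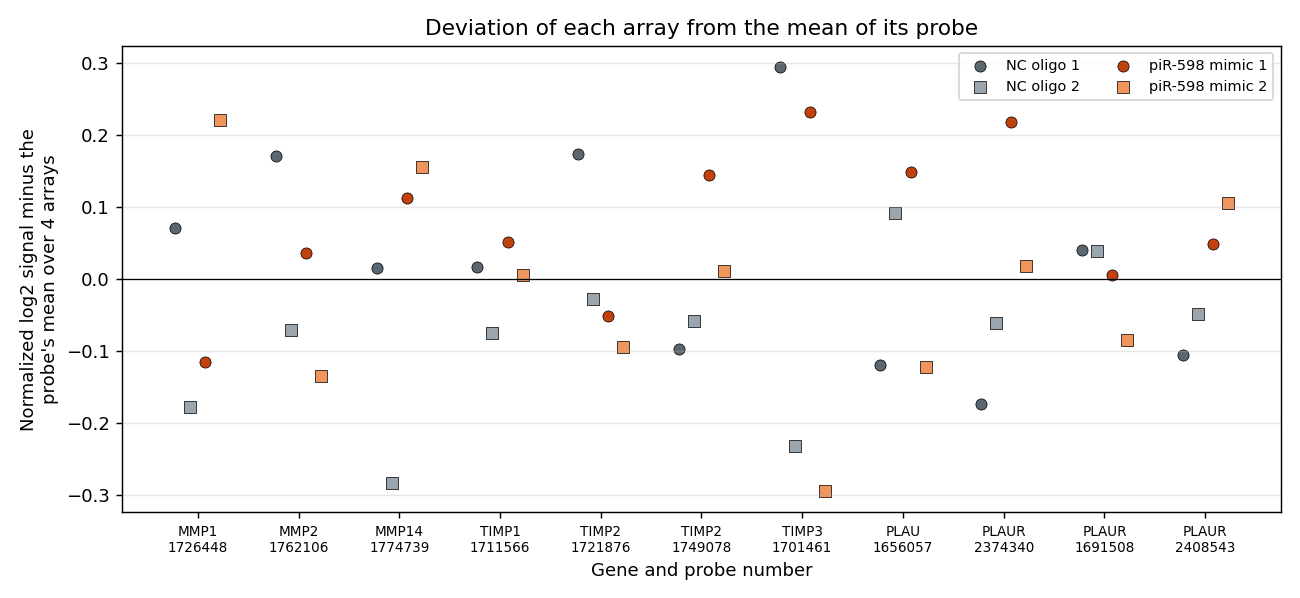
Normalized log2 signal of each array minus the mean of its probe over the 4 arrays (vertical axis), for the 11 tested probes, in grey for the NC oligo and orange for the mimic. TIMP3 shows replicate 1 above replicate 2 in both groups by 0.53, while in PLAUR ILMN_2374340 and ILMN_2408543 both mimic arrays lie above both NC oligo arrays.

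PLAU encodes urokinase, the secreted serine protease that activates plasminogen. Its deposited signals were 6287 and 7025 on the NC oligo arrays and 6658 and 5891 on the mimic arrays. The mimic group held the lowest value and the NC oligo group the highest. Normalized log2 values were 12.52 and 12.74 with the NC oligo and 12.79 and 12.52 with the mimic, with each group's arrays spread over the same range. The log2 fold change of PLAU was 0.03 ± 0.16 (SE), with a 95% interval from -0.34 to 0.40 (limma adjusted p = 0.994). It was -0.08 without NC oligo replicate 1 and -0.11 without mimic replicate 1. Under median scaling it was -0.04, but that scaling moved the median of all tested probes further, to -0.09.

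PLAUR encodes the urokinase receptor, which is held to the cell surface by a GPI anchor. Its 3 probes did not move one way, although each separated the arrays by group. Probe ILMN_2374340 gave deposited signals of 1929 and 2034 on the NC oligo arrays and 2204 and 2002 on the mimic arrays. Its normalized log2 level was 10.83 ± 0.08 with the NC oligo and 11.06 ± 0.14 with the mimic (SD, n = 2), with both mimic arrays higher. The log2 fold change was 0.24 ± 0.15 (SE, limma adjusted p = 0.919), between 0.14 without mimic replicate 1 and 0.34 without mimic replicate 2. Probe ILMN_2408543 gave deposited signals of 1031 and 1039 against 983 and 1066, and a log2 fold change of 0.15 ± 0.14 (SE, limma adjusted p = 0.957). On the normalized scale both mimic arrays were higher for this PLAUR probe too. Probe ILMN_1691508 gave deposited signals of 1263 and 1237 against 1065 and 1056, lower on both mimic arrays. Its log2 fold change was -0.08 ± 0.14 (SE, limma adjusted p = 0.984), with both mimic arrays lower after normalization as well, and it was -0.12 without mimic replicate 1 and -0.03 without mimic replicate 2.

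The annotation ties ILMN_2374340 and ILMN_1691508 to the same PLAUR transcript and ILMN_2408543 to another. Of the 2 pairs of PLAUR probes that went opposite ways, 1 thus shares its annotated transcript and the other does not. The difference between ILMN_2374340 and ILMN_1691508 shifted by 0.32 on the log2 scale between the groups, and that between ILMN_2408543 and ILMN_1691508 by 0.23. These comparisons of probes were picked after the values were seen and carry no test. All 3 PLAUR probes kept their own sign under each of the 13 alternatives fitted, but only changes of background step or scaling could have turned it. The filter, trend and block alternatives leave the fold change as it was. Leaving out an array cannot turn the sign where the groups do not overlap.

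Over the whole set, the arrays separated by group at 6 of the 11 tested probes. Of these, 4 were higher with the mimic (MMP14, the dimmer probe of TIMP2 and 2 probes of PLAUR), where the background was 17.1% of all tested probes, and 2 were lower (the brighter probe of TIMP2 and 1 probe of PLAUR), where it was 17.6%. In either direction the background was 34.7%. With 5 of these 6 probes belonging to TIMP2 and PLAUR, the count reads few genes, and each of those genes appeared in both directions. Read from the brightest probe of each gene, the arrays separated at 3 of 8 tested members, where the background was 34.5% of the tested genes. Nothing can be read from that count.

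The 200 bases before the RefSeq start are shown for TIMP1, PLAU and PLAUR, an inhibitor, a protease and its receptor that this line expressed on every array, to set out the letters that lie next to their starts. They are from assembly GRCh38.p14, 5′ to 3′ on the gene's own strand. Capitals mark TGAGTCA or TGACTCA, the core of an AP-1 site, and GGGCGG or CCGCCC, the GC box, searched on both strands. TIMP1 lies at chrX:47582236-47582435 on the plus strand, PLAU at chr10:73910932-73911131 on the plus strand and PLAUR at chr19:43670170-43670369 on the minus strand.
TIMP1: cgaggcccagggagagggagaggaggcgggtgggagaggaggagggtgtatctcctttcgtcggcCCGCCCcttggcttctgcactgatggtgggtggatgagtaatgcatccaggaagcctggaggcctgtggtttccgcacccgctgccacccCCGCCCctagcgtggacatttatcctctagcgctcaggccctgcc
PLAU: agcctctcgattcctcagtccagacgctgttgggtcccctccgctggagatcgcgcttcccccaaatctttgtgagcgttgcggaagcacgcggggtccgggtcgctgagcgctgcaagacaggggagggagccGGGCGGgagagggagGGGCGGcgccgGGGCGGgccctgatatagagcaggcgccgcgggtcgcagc
PLAUR: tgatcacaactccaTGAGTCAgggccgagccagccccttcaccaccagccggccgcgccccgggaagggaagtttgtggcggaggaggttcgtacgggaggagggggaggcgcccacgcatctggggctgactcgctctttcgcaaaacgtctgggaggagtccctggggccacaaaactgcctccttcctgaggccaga
PLAUR held 1 AP-1 core, which began 186 bases before the start, and 0 GC boxes. TIMP1 held 2 GC boxes, beginning 135 and 45 bases before the start, and PLAU held 3, beginning 66, 51 and 40 bases before it. A further RefSeq start of PLAU, at chr10:73910410-73910609, had 0 matches to either motif, while TIMP3 held 5 GC boxes and MMP14 held 1. Among 35116 stretches of the same length in the table, 3.54% held the AP-1 core and 40.1% a GC box. These matches describe letters only. Entries were matched by symbol for 5 of the 9 genes, and those not matched are MMP1, MMP2, MMP9 and TIMP2.

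Because the balance of enzyme and inhibitor matters for matrix breakdown, the log2 difference between partners was compared within each array. Only its shift between the groups can be read, since probes differ in brightness. The shift was computed for 5 pairs, and MMP9, which was not detected, entered none. MMP14 minus TIMP2 shifted by 0.41, with deviations from the mean of -0.16 and -0.26 on the NC oligo arrays and 0.16 and 0.25 on the mimic arrays. PLAU minus PLAUR shifted by -0.21, from 0.05 and 0.15 to -0.07 and -0.14. In both pairs the groups did not overlap, which is the most that 4 arrays can show: the exact permutation test gave p = 0.333 for each, two-sided, the smallest p it allows, and 0.833 after Benjamini-Hochberg adjustment over the 5 pairs. With no background step the first shift was 0.22, and it was 0.28 at an offset of 50 and 0.29 on the authors' scaled signals. It used the brighter TIMP2 probe, and the dimmer one had a log2 fold change of 0.16, nearer to that of MMP14. The second used PLAUR ILMN_2374340, whose sister probe ILMN_1691508 had a log2 fold change of -0.08, below that of PLAU. MMP1 minus TIMP1 shifted by 0.05 and MMP2 minus TIMP2 by 0.05, and MMP14 minus TIMP3 by 0.33, all 3 with overlapping groups. These 3 rested on single arrays. MMP14 minus TIMP3 ran from 0.05 without mimic replicate 2 to 0.62 without mimic replicate 1. MMP1 minus TIMP1 ran from -0.14 without mimic replicate 2 to 0.24 without mimic replicate 1, and was below 0 also without NC oligo replicate 2, on the authors' scaled signals, with no background step and under median scaling. MMP2 minus TIMP2 ran from -0.02 without mimic replicate 1 to 0.11 without mimic replicate 2.

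Other genes of matrix breakdown were read from 6 lists of 103 genes in all, of which 100 had a named probe and 56 a tested one. Limma called 0 of the 56, where the background was 0% of the 11704 tested genes, each read from its brightest tested probe. Without adjustment, 0 had a p under 0.05, beside 4.84% of the tested genes. Their median log2 fold change was -0.04, against -0.01 for all tested genes, with 22 positive and 34 negative.

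Of 19 other metalloproteinase genes 7 were tested, 1 positive and 6 negative, with a median log2 fold change of -0.05. The undetected ones included the collagenase genes MMP8 and MMP13. MMP23B, which has a near-identical genomic copy that the probe may read as well, had a log2 fold change of 0.14 ± 0.16 (SE). MMP10, a stromelysin, had -0.06 ± 0.15, and MMP12, the macrophage elastase, had -0.06 ± 0.20 (SE) with its other probe at 0.04. Each of these values is within its own standard error of 0. These probes were also dim, with mean log2 levels under the NC oligo of 5.07 for MMP23B, 5.43 for MMP10 and 4.90 for MMP12, beside 5.05 for MMP14. Not every tested gene of the list was dim. MMP3, picked after its values were seen, had a mean log2 level of 11.08 under the NC oligo. Its log2 fold change was -0.03 ± 0.17 (SE).

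Of 14 partners of plasminogen activation 8 were tested, 2 positive and 6 negative, with a median of -0.04. LRP1, an endocytic receptor that takes up proteases from the cell surface, had normalized log2 values of 7.97 and 7.86 with the NC oligo and 7.81 and 7.38 with the mimic. Both mimic arrays were lower, but they differed from each other by more than the groups did, and the log2 fold change was -0.32 ± 0.18 (SE, limma adjusted p = 0.902). PLGRKT, a plasminogen receptor, had -0.28 ± 0.16 (SE), and ANXA2, a surface protein that binds plasminogen and tissue plasminogen activator, had -0.10 ± 0.14 (SE) with other probes at 0.05 and -0.0035. Plasminogen itself, PLG, was detected on 0 arrays.

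Of 12 other inhibitors and regulators of metalloproteinases 9 were tested, 2 positive and 7 negative, with a median of -0.07. SPOCK1, a matrix proteoglycan, had a log2 fold change of -0.15 ± 0.15 (SE), THBS2, a matricellular thrombospondin, had -0.18 ± 0.19 (SE), and BSG, known as an inducer of metalloproteinases, had 0.10 ± 0.14 (SE). The lowest limma adjusted p of these 3 was 0.960, that of SPOCK1.

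Of 24 ADAM and ADAMTS genes 11 were tested, 6 positive and 5 negative, with a median of 0.01. ADAM15, a membrane disintegrin and protease, had normalized log2 values of 9.99 and 10.08 with the NC oligo and 10.41 and 10.30 with the mimic. The groups did not overlap, and the log2 fold change was 0.32 ± 0.14 (SE, limma adjusted p = 0.895), but 3 other ADAM15 probes were at 0.18, 0.15 and -0.01. ADAM9, a membrane sheddase with a dim probe (mean log2 level 5.46 with the NC oligo), had 0.22 ± 0.15 (SE). ADAM12 had -0.19 ± 0.16 (SE) with its other tested probe at -0.28.

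Of 22 cathepsin and cystatin genes 14 were tested, 7 positive and 7 negative, with a median of -0.01. CTSS, the cysteine protease cathepsin S, had normalized log2 values of 6.83 and 6.71 with the NC oligo and 6.39 and 6.50 with the mimic, lower on both mimic arrays. Its log2 fold change was -0.32 ± 0.14 (SE, limma adjusted p = 0.895). CTSS is best known from antigen-presenting cells, while every sample here came from the same single glioblastoma line. CST7, a cystatin detected on 1 of 2 NC oligo arrays, had 0.19 ± 0.15 (SE), and CST3, the abundant inhibitor cystatin C, had -0.12 ± 0.14 (SE).

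Of 12 membrane and secreted serine proteases and inhibitors 7 were tested, 4 positive and 3 negative, with a median of 0.07. SERPINH1, a collagen chaperone of the serpin family that inhibits no protease, had a log2 fold change of 0.27 ± 0.14 (SE, limma adjusted p = 0.900). SERPINI1, the neuronal inhibitor neuroserpin, had 0.32 ± 0.23 (SE), which rested on mimic array 2 at 6.14 against 5.37 on mimic array 1 in normalized log2 values. The SERPINI1 probe was also dim, with a mean log2 level of 5.43 under the NC oligo. PRSS23 had -0.19 ± 0.14 (SE).

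**Figure D4:**
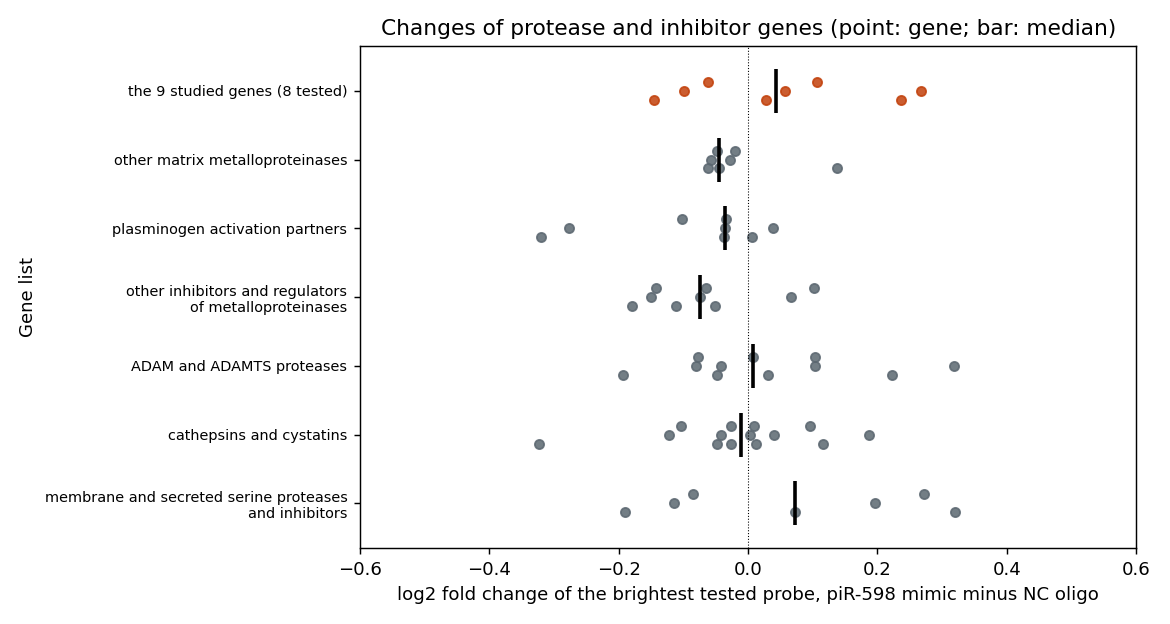
Log2 fold change (horizontal axis, piR-598 mimic minus NC oligo) of the brightest tested probe of each gene, 1 row per list, with a bar at the median. The 8 tested genes of the studied set run from -0.15 to 0.27, and all 56 listed genes lie between -0.32 and 0.32.

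The genes most like MMP14 in pattern were sought because its brightest probe had the smallest unadjusted p of the set. Likeness was measured as the root mean square distance between log2 values centred on each probe's mean over the 4 arrays. The nearest were WASH3P at 0.01, SMIM11 at 0.01 and COL4A5, a basement membrane collagen chain, at 0.02, against a median distance of 0.21 over all tested probes. With 4 arrays such closeness says little, and WASH3P belongs to a family of near-identical copies.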

How the data were processed

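RNA of 4 samples was read on Illumina bead arrays. The authors deposited a table of average signal intensity per probe with a detection p-value beside each signal, both as named in the file headers, and a table of intensities scaled to a common array mean, used here as an alternative. GenomeStudio 2011.1 made these values, per the submitters' processing notes. A genome build and the settings of that program are not given in the sources used here. Groups and replicate numbers came from the sample titles.

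Background was removed from the unscaled signals by normexp (offset 16, negative controls inferred from the detection p), followed by quantile normalization and log2 (neqc steps of limma 3.58.1, R 4.3.3). A probe entered the test if its detection p was under 0.05 on 2 or more arrays, which kept 20188 of 47318. All were fitted with lmFit and eBayes, two-sided, with Benjamini-Hochberg adjustment over all of them. The scripts were tested on simulated data. The fitted prior carried 6.74 degrees of freedom.

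Genes were named from the platform annotation, which gave a single symbol to 30112 probes, several to 8 and none to 17198. The gene identifiers of 30073 named probes had an entry in RefSeq (GRCh38.p14). Listed genes were read from the brightest tested probe, and the 3 of smallest unadjusted p per list are named. The members and lists were chosen with earlier results of these data known. Alternatives changed the background step (none, or an offset of 50), the scaling (median, cyclic loess, or the authors' scaled signals) and the filter (none, or a detection p under 0.01 on every array). Others were an intensity trend in eBayes, the replicate number as a block, leaving out each array, and the dimmest probe per gene for lists.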

Additional observations from a re-analysis of the deposited data

How the results depend on the processing

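No member probe and no listed gene was called by limma under any of the alternatives run. Over all probes the count was 0 except when an array was left out, where it ran from 0 to 3, with 3 without NC oligo replicate 2 and 1 without mimic replicate 2, and the lone array of a group is then assumed to vary like the other group. Of 143 fold changes of member probes under alternatives, 135 kept their sign and 8 turned. The changes of filter, the intensity trend and the replicate block leave each fold change as it was. Where the groups do not overlap, leaving out an array cannot turn the sign either. Part of the 135 was thus fixed in advance, and the count does not measure stability. PLAU turned to -0.042 under median scaling. With arrays left out in turn, log2 fold changes ran from -0.062 to 0.28 for MMP1, from -0.22 to 0.022 for MMP2, from -0.11 to 0.16 for PLAU and from -0.33 to 0.20 for TIMP3, and the cause was not tested. Median scaling moved the median of all tested probes to -0.09. With the replicate number as a block limma called 0 probes, and the lowest adjusted p of a member was 0.778. Across the tested probes, the deviations of the replicate 1 arrays from their group means correlated at 0.15 between the groups. With 2 arrays per group the replicate 2 deviations mirror these and add nothing. Whether the numbers pair the arrays is unknown. There were 2 arrays per group, and values of dim probes hung on the background step: without it, log2 fold changes were 0.09 for MMP14, 0.05 for MMP1 and 0.07 for the dimmer TIMP2 probe, and with an offset of 50 they were 0.14, 0.07 and 0.10.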
